A study of Mus musculus with 56 samples.

Results

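Replication-dependent histone genes encode the core histones H2A, H2B, H3 and H4 that package newly copied DNA. They were taken as every protein-coding gene whose symbol begins with Hist1h to Hist4h, H2ac, H2bc, H3c or H4c, and 58 of the 55386 genes in the deposited count tables met that rule. The members comprised 17 H2A, 17 H2B, 12 H3 and 12 H4 genes. By the GENCODE vM21 annotation of GRCm38, 48 of them lie on chromosome 13, between positions 21715763 and 23934851, and 10 on chromosome 3, between 96219865 and 96270132. Tables for the astrocyte and the heterozygous microglial line held a row for 51 members. Another 7 had a row in the knockout table alone, with 0 counts in every library.

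RNA was measured in mouse barrel cortex, the cortical area that receives whisker input, on postnatal day 5. Ribosomes carrying a green fluorescent tag on the protein L10a were pulled down, and RNA was sequenced from the pulled-down (bound) and the remaining (unbound) material. In the astrocyte line, with the genotype Aldh1l1::eGFPL10a, the tag is driven from Aldh1l1 regulatory sequence and no tamoxifen was given. The microglial lines carried Eef1a1LSL.eGFPL10a/+, in which Cre opens expression of the tag, together with Cx3cr1CreErt2/+ (Litt) in the heterozygous line and Cx3cr1CreErt2/CreErt2 (Litt) in the line labelled Cx3cr1-KO. Cre in both was activated with 50 µg of tamoxifen on each of postnatal days 1 to 3. On day 4 the right-sided whiskers of every mouse were cauterised, in all 3 lines. Control libraries thus come from the other cortex of lesioned animals, except that the heterozygous labels differ for mice 17 and 21. The 56 libraries fall into 12 groups, of 5 libraries each in the astrocyte and knockout lines and 4 each in the heterozygous line. The labelled molecule is polyA RNA in the 20 knockout libraries and total RNA in the other 36, while the extraction and cDNA protocol is the same text for all. In the heterozygous line piece 17R is labelled deprived and piece 21L control, against the side letter that the other pieces of these groups carry. By these labels both cortices of mouse 17 are deprived and both of mouse 21 control. Only mice 14 and 15 give a piece to each heterozygous group, so deprivation and mouse are partly confounded there. Line, count table and RNA type coincide for the knockout libraries, so these cannot be told apart. The astrocyte labels name no animals and the microglial libraries share mice, so p-values measure the spread between libraries.

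Core histone mRNAs of this family are made when cells copy their DNA in S phase, and their genes sit in clusters with many near-identical copies. Most of their transcripts end not in a poly(A) tail but in a short conserved stem-loop, which the stem-loop binding protein SLBP holds during 3′ processing, translation and decay. The transcripts are degraded quickly when replication stops. Some members also give longer, polyadenylated transcripts, including in cells that have stopped dividing. In the cortex just after birth, dividing cells include glia and their progenitors, whereas most cortical neurons have left the cell cycle.

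The stem-loop was searched for in GENCODE vM21 transcripts as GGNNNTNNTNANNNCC after the stop codon, on the transcribed strand. The first 6 bases of a hit also had to be the reverse complement of its last 6, so a stem with a mismatch was not counted. By this rule a stem-loop was found in 39 of 58 members, in 8 distinct forms. It lay 21 to 58 bases after the stop codon, with a median of 31. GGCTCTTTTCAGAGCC was shared by 21 members of the H2A, H2B and H3 classes, and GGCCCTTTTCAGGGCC by 6 members, each an H4 gene. The 5 sequences below belong to members on which the results turn. Their likeness is partly set by the search. Capitals mark the stem-loop, and the flanks are 5 bases on each side.

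H4c4, chr13:23581950-23581965, plus strand: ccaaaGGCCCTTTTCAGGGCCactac

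H2bc14, chr13:21722506-21722521, plus strand: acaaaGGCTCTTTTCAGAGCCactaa

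H2bc3, chr13:23747203-23747218, plus strand: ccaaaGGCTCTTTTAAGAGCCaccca

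H3c3, chr13:23745047-23745062, minus strand: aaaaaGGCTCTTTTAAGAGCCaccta

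H4c14, chr3:96262939-96262954, minus strand: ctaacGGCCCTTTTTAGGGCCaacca

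Annotated 3′ ends differed between members. In 23 members a transcript ends within 100 bases of the stem-loop, as in H2bc14, 46 bases past it, and H2bc3, 23 bases past it. In 16 members the annotation runs further, by 770 bases in H4c4, 1257 in H4c14 and 2010 in H2ac6. A 3′ UTR of at least 300 bases without the stem-loop was annotated for 4 members, all H2B genes: 2192 bases in H2bc21, 742 in H2bc4 and 823 in both Hist1h2bq and Hist1h2br. The annotation of the remaining 15, among them H2ac15, H2bc13 and H2bc15, gave neither. Their annotated 3′ UTRs are absent or short, with 0 bases in these named genes and at most 37, in H3c13. A stem-loop could not be found past such ends, so its absence is not shown. Nor is it shown for the 4 members with a long 3′ UTR. Only annotated, spliced transcripts were searched, so the intron of H2bc4, annotated with 2 exons, was left out.

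Promoters of 250 bases before the start site were available from RefSeq (GRCm38.p6) for 45 members. The octamer ATTTGCAT, searched on both strands, is the element that Oct factors bind in H2B promoters. It lay in 7 of 12 H2B promoters (58.3%) and 6 of 14 H2A promoters (42.9%), in 0 of 10 H3 and 0 of 9 H4 promoters, and in 1.8% of 27025 promoters of all genes. CCAAT was found in 14 of 14 H2A and 12 of 12 H2B promoters, 8 of 10 H3 and 3 of 9 H4 promoters, against 37.5% of all. TATAAA was found in 20 of 45 members (44.4%) and 14.3% of all genes. Shown here are the octamer windows of 3 abundant or paired H2B genes, with the octamer in capitals. The H2bc8 window also lies before H2ac8, which is transcribed the other way from the same stretch. H2bc12 and H2ac12 share an octamer in this way too, as do H2bc1 and H2ac1. These shared octamers are counted in both the H2B and the H2A promoters.

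H2bc14, chr13:21722003-21722042, plus strand, 25 bases before the start: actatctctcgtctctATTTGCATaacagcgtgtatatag

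H2bc3, chr13:23746628-23746667, plus strand, 90 bases before the start: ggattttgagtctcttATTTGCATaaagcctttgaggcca

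H2bc8, chr13:23571325-23571364, plus strand, 59 bases before the start: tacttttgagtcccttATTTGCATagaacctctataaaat

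Copies limit how far counts belong to one gene. Of the 58 coding sequences 55 had another of the same length, with a median identity of 98.7% to the nearest copy, and 10 were identical to another: H2ac18 and H2ac19, H3c14 and H3c15, Hist1h2ao and Hist1h2ap, Hist1h2bq and Hist1h2br, and Hist1h4m and Hist1h4n. Levels of these and of other close copies are uncertain. Another annotated gene overlaps 22 members. In 16, all H2A genes, a predicted miRNA gene lies on the opposite strand, and H2bc6 overlaps the linker histone gene Hist1h1e on its own strand. Whether counting used the strand is not given in the sources used here, so values of overlapped members are uncertain.

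Libraries held 10080000 to 28580000 counts in the astrocyte line and 32770000 to 56690000 in the microglial lines. The members took 690 to 3680 counts of each. Only 19, 19 and 20 members averaged over 10 counts a library in the astrocyte, heterozygous and knockout tables, and 12 had at most 10 counts over every library. Cx3cr1 averaged 9.57 CPM (counts relative to library size, with sizes scaled by TMM) in bound RNA of the heterozygous line and 0.786 in that of the knockout line. The 8 microglial markers summed to 102.9 to 221.4 CPM in heterozygous bound RNA, 53.6 to 191.0 in knockout bound RNA and 14.9 to 26.25 in unbound RNA of these lines, with no marker at 0. The 6 astrocyte markers summed to 973.5 to 1208 CPM in astrocyte bound RNA and 416.7 to 518.9 in unbound RNA. Neuronal markers stayed in every pulldown: 6 of them summed to 2032 to 3032 CPM in bound RNA and 4227 to 5556 in unbound RNA of the 3 lines. Mitochondrially encoded genes took 2.01% to 5.59% of counts in bound RNA, 5.545% to 9.24% in astrocyte unbound RNA and 21.9% to 33.1% in microglial unbound RNA.

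A few H2B genes and H4c4 made up most of the family's RNA. Per kilobase of exon, averaged over the 12 groups, H4c4 stood highest at 8.91 CPM, followed by H2bc4 at 7.40, H2bc21 at 6.51, H2bc13 at 6.15, H2bc14 at 6.07 and H2bc3 at 5.63. H2bc7 reached 3.045, H2bc11 2.91, H2ac15 2.15, H2bc15 1.365, H4c14 1.15 and H3c3 1.09 CPM per kilobase. H2ac15 and H3c3, the most abundant H2A and H3 members on this scale, thus lay below 7 H2B genes and H4c4. Not corrected for length, H2bc21, H4c4 and H2bc4 together gave 52.2% to 70.6% of the summed member CPM in the 6 combinations of line and fraction. H2B genes gave 65.4% to 76.2% of that sum, H4 genes 17.4% to 27.4% and H2A genes 2.902% to 4.11%. The median member was at 0.251 CPM in the astrocyte table, 0.0852 in the heterozygous and 0.0678 in the knockout table.

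**Figure D1:**
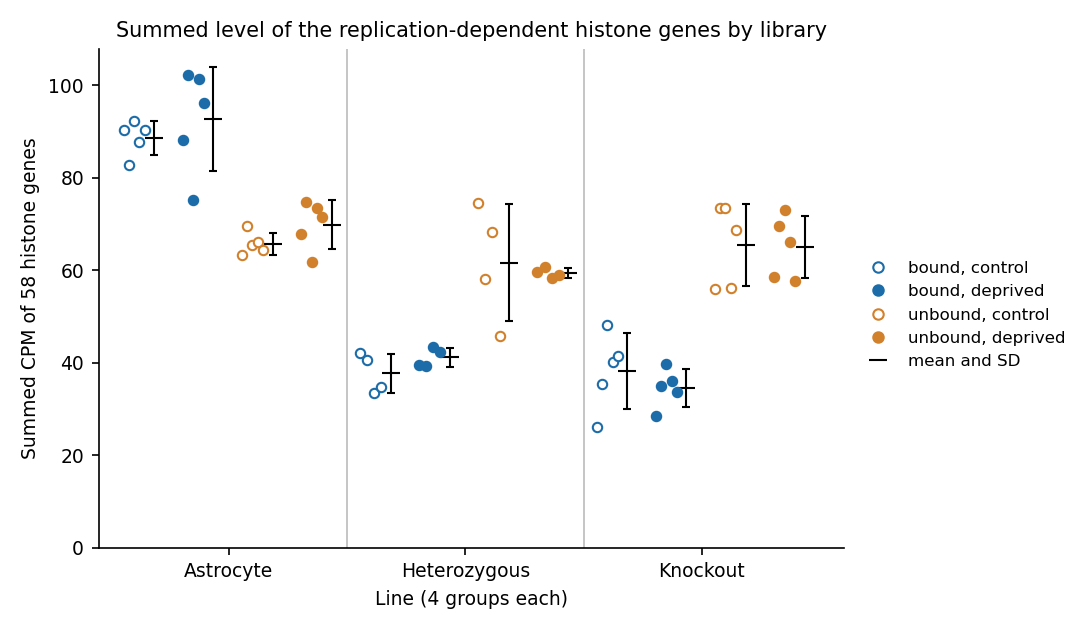
Summed CPM of the replication-dependent histone genes in each library (vertical axis, CPM) by line, fraction and whisker side. Points are libraries, filled where deprived, and bars are group means with SD. Astrocyte bound libraries (75.3 to 102.2) lie above their unbound libraries (61.8 to 74.8), and both microglial lines show bound libraries below unbound ones.

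Summed over the family, pulldown from the astrocyte line held more histone mRNA than the remaining RNA, and pulldown from either microglial line held less. In the astrocyte line the sum was 90.65 ± 8.15 CPM in bound RNA (SD, n = 10, range 75.3 to 102.2) and 67.8 ± 4.40 in unbound RNA (n = 10, 61.8 to 74.8), a ratio of 1.34. In the heterozygous line it was 39.4 ± 3.59 CPM bound (n = 8, 33.5 to 43.5) and 60.5 ± 8.33 unbound (n = 8, 45.8 to 74.5). In the knockout line it was 36.4 ± 6.41 CPM bound (n = 10, 26.1 to 48.2) and 65.2 ± 7.42 unbound (n = 10, 56.0 to 73.5). Unbound RNA thus held 1.535 times the bound sum in the heterozygous line and 1.79 times in the knockout line. On this scale bound and unbound libraries did not overlap in any line. Scaled to total counts, they overlapped in both microglial lines. Heterozygous bound libraries then reached 46.6 CPM and unbound ones fell to 42.74. Knockout bound libraries reached 55.49 CPM and unbound ones fell to 50.13. With mitochondrially encoded genes left out of the total counts, the fractions overlapped in neither microglial line. Bound libraries then reached 47.7 CPM and unbound ones fell to 54.71 in the heterozygous line. In the knockout line these values were 58.13 and 70.96. The 3 tables were scaled separately, so sums are set side by side across lines as levels only. In such bulk RNA, fewer cells of a type and less RNA per cell cannot be told apart.

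**Figure D2:**
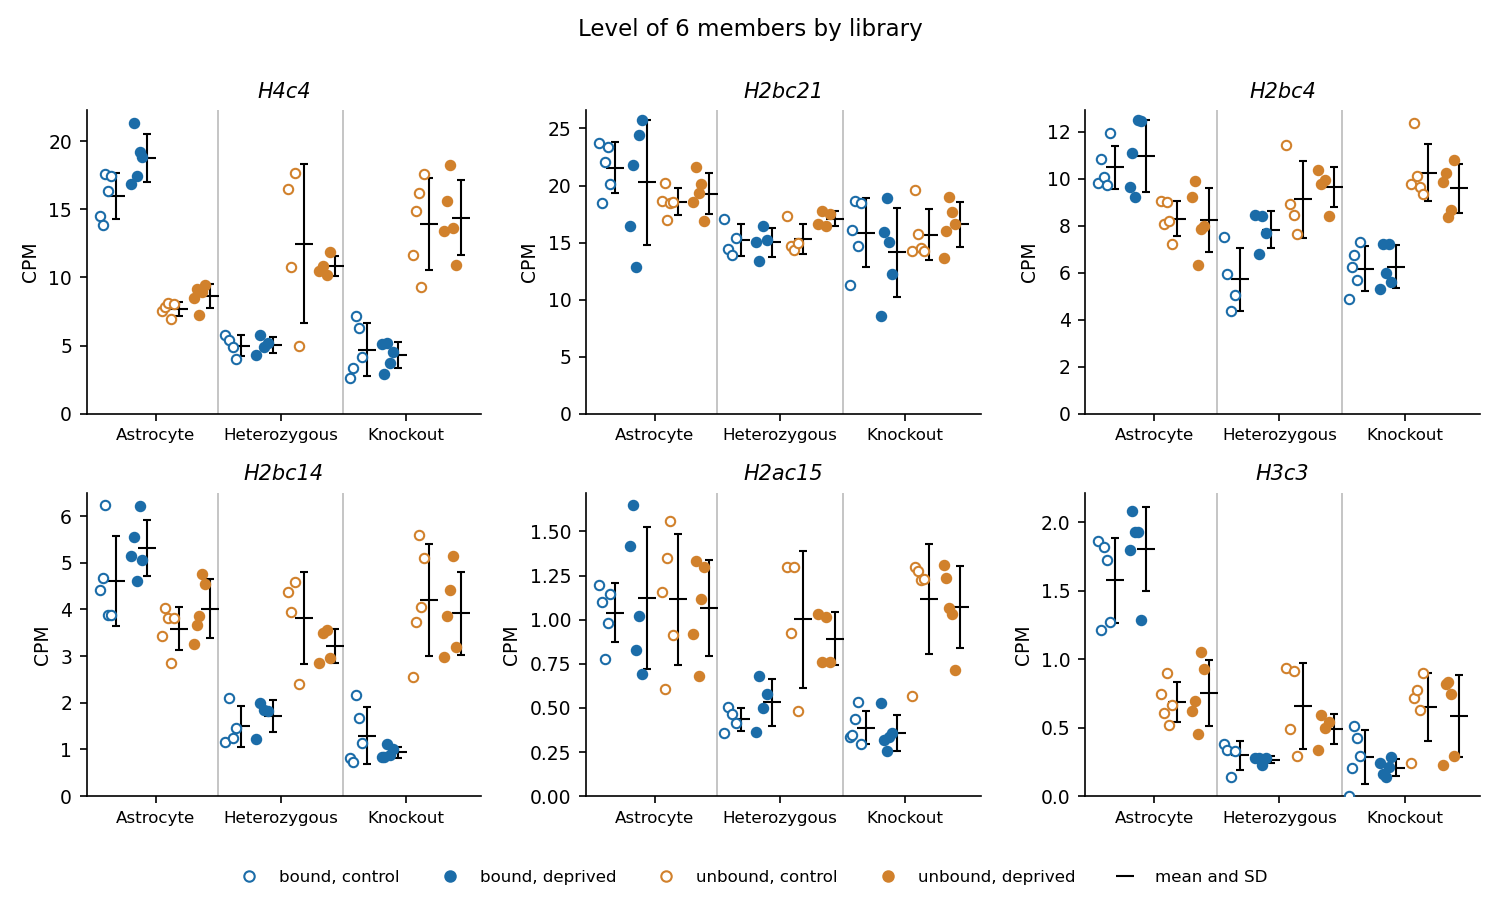
CPM of 6 members (H4c4, H2bc21, H2bc4, H2bc14, H2ac15 and H3c3) in each library, by line, fraction and whisker side (vertical axis, CPM), with group means and SD as bars. H4c4 runs from 13.9 to 21.4 CPM in astrocyte bound RNA and from 2.61 to 7.14 in knockout bound RNA, whereas the H2bc21 libraries overlap between fractions in every line.

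The comparison of bound with unbound RNA asks which transcripts are more abundant on the tagged ribosomes than in the rest of the tissue lysate. Of 18324 genes tested in the astrocyte line, 59.1% passed an adjusted p of 0.05, 31.5% as higher and 27.6% as lower in bound RNA. A low-count filter left 21 members to test; 9 were higher in bound RNA and 0 lower, with a median log2 change of 0.41 against 0.03 over all genes tested. At 9 of 21, the share of members called higher was not far above the share of all genes called higher, while no member was called lower. By class, 6 of 13 H2B, 2 of 3 H3, 1 of 3 H4 and 0 of 2 H2A members passed.

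H4c4, an H4 gene of the chromosome 13 cluster, had CPM values of 13.9 to 21.4 in astrocyte bound RNA (median 17.4) and 6.92 to 9.45 in unbound RNA (median 8.08). Every bound library stood above every unbound one. Its log2 change was 1.13 ± 0.07 (SE; adjusted p = 5.7e-14, edgeR's quasi-likelihood test with Benjamini-Hochberg adjustment, as for every adjusted p here unless another tool is named). H3c3, an H3 gene, ranged from 1.21 to 2.08 CPM in bound RNA and 0.453 to 1.05 in unbound RNA, again without overlap, and rose by 1.29 ± 0.19 (adjusted p = 1.3e-06). The other H3 gene that passed, H3c6, rose by 1.32 ± 0.28 (adjusted p = 0.00019). Among H2B genes the changes were smaller for the abundant members. H2bc4 rose by 0.41 ± 0.08 (adjusted p = 0.00011), H2bc14 by 0.43 ± 0.11 (adjusted p = 0.0011), H2bc13 by 0.52 ± 0.12 (adjusted p = 0.00072) and H2bc7 by 0.60 ± 0.13 (adjusted p = 0.00025). H2bc9 rose by 0.91 ± 0.25 (adjusted p = 0.0026), and Hist1h2bq by 1.34 ± 0.20 (adjusted p = 2.3e-06). Libraries of both fractions overlapped for each of these H2B genes. H2bc21, at 12.9 to 25.8 CPM bound and 16.9 to 21.6 unbound, did not pass (0.18 ± 0.09, adjusted p = 0.075), nor did H2ac15, at 0.694 to 1.65 CPM bound and 0.605 to 1.56 unbound (0.06 ± 0.21, adjusted p = 0.81). H2bc3 (0.20 ± 0.13), H2bc11 (0.15 ± 0.14), H2bc15 (0.56 ± 0.25) and H4c14 (0.25 ± 0.15) did not pass either.

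In the microglial lines the direction was the opposite. Of 19275 genes tested in the heterozygous line 62.6% passed, 31.8% higher and 30.8% lower in bound RNA; of 21 members tested 18 were lower and 0 higher, with a median log2 change of -0.98 against -0.01 over all genes. Of 19681 genes in the knockout line 61.9% passed, 31.6% higher and 30.4% lower; of 22 members tested 19 were lower and 0 higher, with a median of -1.32 against -0.01. In both lines members were called lower at a far larger share than genes at large. The calls spanned every class: 11 of 12 H2B members were lower in each line, 2 of 3 H3, 3 of 4 H4, and 2 of 2 (heterozygous) or 3 of 3 (knockout) H2A members. In the heterozygous line the count was 17 of 21 from control libraries alone and 10 of 21 from deprived libraries alone.

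H4c4 had 4.00 to 5.79 CPM in heterozygous bound RNA (median 5.04) and 4.98 to 17.7 in unbound RNA (median 10.8). The lowest unbound library lay within the bound range. In the knockout line it had 2.61 to 7.14 CPM bound (median 4.345) and 9.33 to 18.3 unbound (median 14.3), without overlap. Its log2 change was -1.25 ± 0.18 in the heterozygous line (adjusted p = 3.3e-06) and -1.67 ± 0.16 in the knockout line (adjusted p = 6e-09). H2bc14, an H2B gene whose annotated end lies close to its stem-loop, had 1.16 to 2.11 CPM bound and 2.395 to 4.59 unbound in the heterozygous line, and 0.722 to 2.16 bound and 2.54 to 5.59 unbound in the knockout line. Bound libraries lay below unbound libraries in both, with changes of -1.17 ± 0.16 (adjusted p = 1.5e-06) and -1.90 ± 0.18 (adjusted p = 4.6e-09).

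H2B genes of lower level moved alike. H2bc7 had 0.3603 to 0.727 CPM in heterozygous bound RNA and 0.790 to 1.72 in unbound RNA, with no overlap there or in the knockout line, and its changes were -1.02 ± 0.20 and -1.56 ± 0.19. H2bc13 changed by -1.03 ± 0.17 and -1.46 ± 0.19, H2bc3 by -1.01 ± 0.16 and -1.36 ± 0.18, H2bc11 by -0.67 ± 0.19 and -1.32 ± 0.20, and H2bc15 by -0.98 ± 0.27 and -0.87 ± 0.31 in the heterozygous and knockout lines. All of these passed in both lines, with adjusted p-values up to 0.0177. Among H2A genes, H2ac15 had 0.356 to 0.684 CPM bound and 0.484 to 1.30 unbound in the heterozygous line, which overlap. In the knockout line its bound libraries (0.2545 to 0.531 CPM) lay below the unbound ones (0.565 to 1.31). It fell by 1.01 on the log2 scale (SE 0.22, adjusted p = 0.00043) and by 1.56 (SE 0.19, adjusted p = 1.8e-07). The H3 genes H3c3 (-1.05 ± 0.28 and -1.35 ± 0.37) and H3c6 (-1.58 ± 0.36 and -1.49 ± 0.36) and the H4 genes H4c14 (-0.995 ± 0.21 and -1.20 ± 0.15) and H4c3 (-0.86 ± 0.28 and -1.53 ± 0.26) also passed in both. H3c3 is thinly covered here: its bound libraries reached at most 0.380 CPM in the heterozygous and 0.510 CPM in the knockout line, where 1 library had 0 counts.

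H2bc4 and H2bc21 are the abundant H2B genes annotated with long 3′ UTRs in which no stem-loop was found. They had the smallest changes in the microglial lines among the 12 members highest per kilobase. H2bc4 had 4.36 to 8.47 CPM bound and 7.67 to 11.45 unbound in the heterozygous line, and 4.86 to 7.31 bound and 8.36 to 12.4 unbound in the knockout line, where the fractions did not overlap. It fell by 0.53 (SE 0.11, adjusted p = 0.00023) and by 0.69 (SE 0.08, adjusted p = 2.1e-07). H2bc21 had 13.4 to 17.1 CPM bound and 14.3 to 17.8 unbound in the heterozygous line, and 8.56 to 18.9 bound and 13.6 to 19.6 unbound in the knockout line. Its libraries overlapped in both, and it passed in neither (-0.14 ± 0.06, adjusted p = 0.059; -0.12 ± 0.11, adjusted p = 0.36). With the piece of cortex as a replicate block its adjusted p in the heterozygous line was 0.04615, at the same change of -0.14 ± 0.06. It also passed there with DESeq2's size factors (-0.15 ± 0.06, adjusted p = 0.0432) and under DESeq2's Wald test (-0.15 ± 0.06, adjusted p = 0.0378). From deprived libraries alone it passed too (-0.23 ± 0.09, adjusted p = 0.0343), so its call in that line depends on the setting. Its share of the summed CPM was 38.3% in heterozygous and 41.2% in knockout bound RNA, against 26.8% and 24.8% in unbound RNA. H3c15, an H3 gene identical in coding sequence to H3c14, did not pass in either line: 0.420 to 0.936 CPM bound and 0.335 to 0.840 unbound in the heterozygous line, with changes of 0.18 ± 0.20 (adjusted p = 0.45) and, in the knockout line, 0.22 ± 0.22 (adjusted p = 0.39). Another member that did not pass was H4c9 (-0.40 ± 0.27 and 0.18 ± 0.27).

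**Figure D3:**
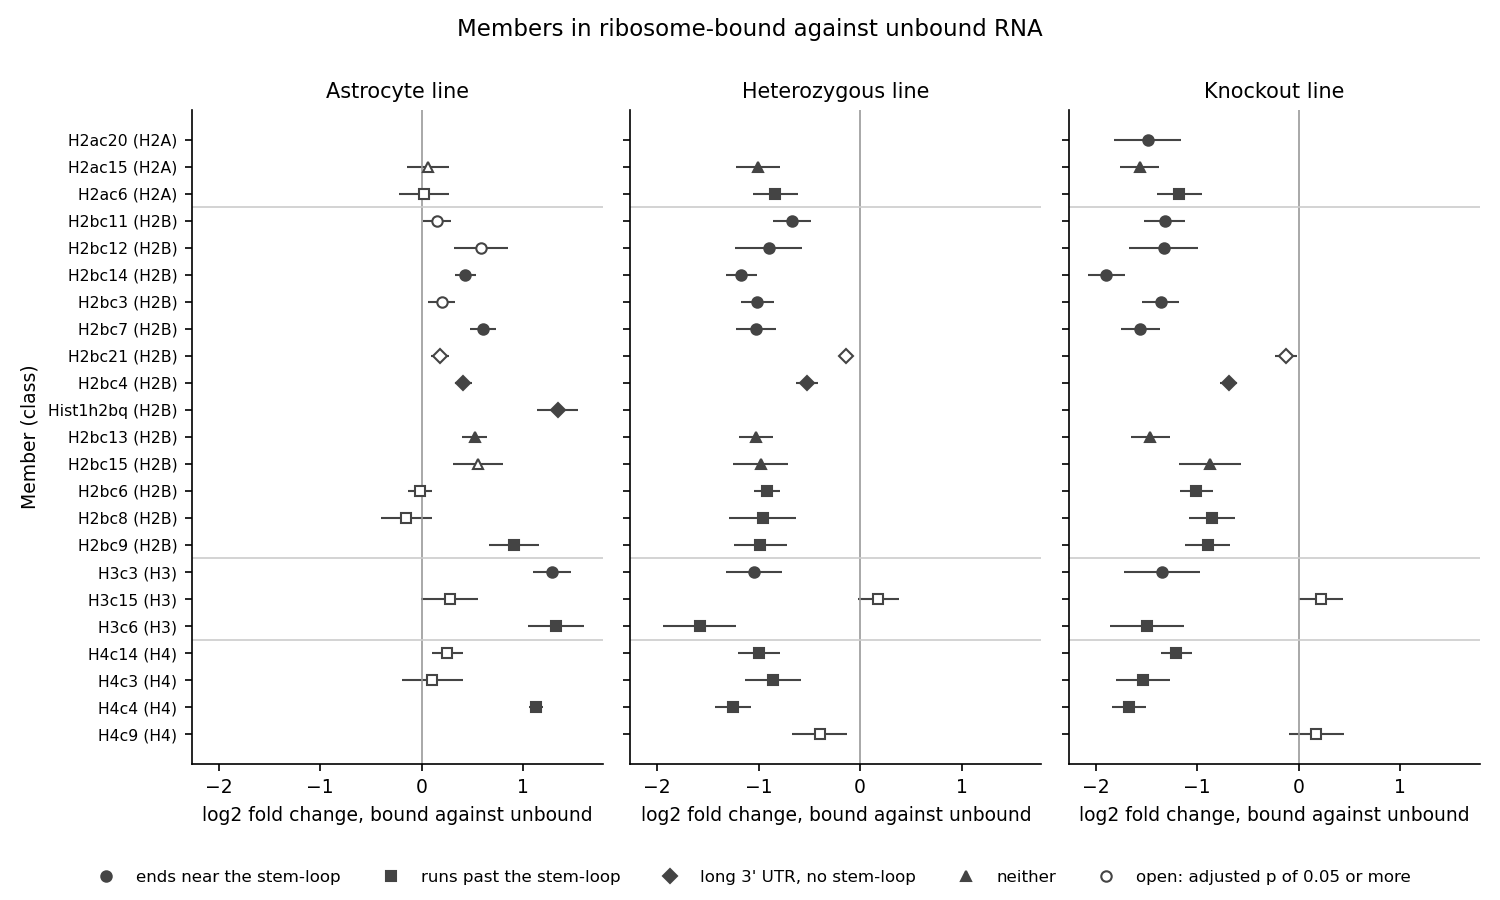
Log2 change of bound against unbound RNA (horizontal axis) for each tested member in a panel per line, with bars of 1 SE, filled points for an adjusted p under 0.05 and shapes for the annotated 3′ end. H4c4 lies at 1.13 in the astrocyte line and at -1.25 and -1.67 in the microglial lines, while H2bc21 lies near 0 in each.

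Sorted by annotated 3′ end, the median changes of members tested were alike among ends with a stem-loop. In the astrocyte, the heterozygous and the knockout line they were 0.51, -1.02 and -1.36 for members ending near it, and 0.25, -0.94 and -1.09 for members running past it. Members whose annotation gave neither feature had 0.52, -1.01 and -1.46. Their annotation stops at the coding end, so their real 3′ ends are not known here. Members with a long 3′ UTR in which no stem-loop was found had 0.41, over 3 of them in the astrocyte line. In the microglial lines they had -0.33 and -0.405, over H2bc4 and H2bc21 alone. With 2 or 3 genes in it, the last set is a description.

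Because the directions were opposite, the difference of the bound against unbound change between lines was tested in 1 fit over all 12 groups, a test chosen after the data were seen. Heterozygous minus astrocyte, 36.5% of 24464 genes differed, 17.7% as higher and 18.8% as lower; 24 of 33 members were lower and 0 higher, with a median difference of -1.48 against -0.12 over all genes. Knockout minus astrocyte, 37% of genes differed, 18.5% as higher and 18.5% as lower; 23 of 33 members were lower and 0 higher, with a median of -1.63 against -0.10. Of the 20 members that also passed the low-count filter within both lines compared, 17 were lower and 0 higher in each difference, with medians of -1.23 and -1.59. The other 13 passed the filter of the joint fit but failed it within at least 1 of the lines compared. They gave 7 and 6 of the calls. A low member that passes through the 1 group where it is high was likely to differ, so these calls are no support. These 2 differences share the astrocyte libraries. Tagged cell type, genotype, tamoxifen, count table and counts per library differ along with the line, so these cannot be told apart. H4c4 differed by -2.38 ± 0.22 (adjusted p = 3.4e-13) and -2.80 ± 0.21 (adjusted p = 1.1e-16). H2bc14 differed by -1.60 ± 0.22 (adjusted p = 5.5e-08) and -2.33 ± 0.22 (adjusted p = 2.5e-13), and H2bc4 by -0.94 ± 0.13 (adjusted p = 7.3e-08) and -1.10 ± 0.13 (adjusted p = 2e-10). The H3 genes H3c6 (-2.895 ± 0.48 and -2.81 ± 0.44) and H3c3 (-2.33 ± 0.42 and -2.63 ± 0.40) also passed. Hist1h2ao (-3.66 ± 1.04 and -3.04 ± 1.14) and H4c11 (-3.00 ± 0.93 and -2.81 ± 0.81) are among those other 13, as is Hist1h2bp in the heterozygous line (-2.40 ± 0.83). Hist1h2ao averaged 0.27 CPM in astrocyte bound RNA and at most 0.0195 in microglial libraries by line and fraction, in heterozygous unbound RNA. H2bc21 missed the threshold (-0.32 ± 0.14, adjusted p = 0.077; -0.31 ± 0.14, adjusted p = 0.070) and passed with the replicate block (-0.30 ± 0.12, adjusted p = 0.0342; -0.31 ± 0.11, adjusted p = 0.0199). H3c15 did not pass, at -0.10 ± 0.35 and -0.06 ± 0.33.

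Between the microglial lines the bound against unbound change of no member passed: 0 of 33 with edgeR and 0 with DESeq2, against 0.00409% of all genes, while 5 members had an unadjusted p under 0.05. H2bc14 differed by -0.73 ± 0.22 (adjusted p = 0.88) and H4c4 by -0.43 ± 0.21 (adjusted p = 1), knockout minus heterozygous.

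Hist1h2bq, an H2B gene with a copy of identical coding sequence, was counted mainly in the astrocyte table. It had 1.10 to 1.94 CPM in astrocyte bound RNA and 0.413 to 1.12 in unbound RNA. In the microglial tables it had at most 0.0641 CPM in any library and 0 counts in 4 of 8 heterozygous bound, 5 of 8 heterozygous unbound, 5 of 10 knockout bound and 7 of 10 knockout unbound libraries. It was too low to be tested between fractions there.

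The labelled RNA type sets knockout (polyA RNA) against heterozygous (total RNA) libraries, over genes present in both tables. In bound RNA 0.0561% of 19601 genes passed, and 0 of 19 members with edgeR and 0 with DESeq2; 2 members had an unadjusted p under 0.05. In unbound RNA 0.218% of 21126 genes passed, and 0 of 24 members with edgeR and 0 with DESeq2, with 0 members at an unadjusted p under 0.05. Median log2 changes of the members were -0.11 in bound and 0.115 in unbound RNA.

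H2bc21 differed by 0.01 ± 0.12 in bound RNA, with 2 SE on either side spanning -0.23 to 0.25. In unbound RNA it differed by -0.01 ± 0.06, spanning -0.14 to 0.12. All spans given here treat libraries of the same mouse as separate, so they may be too narrow for a difference between mice. H2bc4 differed by -0.08 ± 0.11 (-0.30 to 0.13) and 0.08 ± 0.08 (-0.09 to 0.24). For H4c4 the differences were -0.14 ± 0.17 (-0.47 to 0.19) and 0.28 ± 0.15 (-0.02 to 0.57). H2bc14 had the smallest p in bound RNA, at -0.52 ± 0.20 (-0.91 to -0.12, adjusted p = 0.53), and 0.21 ± 0.14 (-0.07 to 0.47) in unbound RNA. Rn7sk, a small nuclear RNA made without a poly(A) tail, averaged 103.1 CPM in heterozygous and 86.5 in knockout bound RNA, and 9.70 and 11.6 in unbound RNA. Other RNAs of this kind were listed but are not described here, so Rn7sk does not speak for them.

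Unbound RNA of the same cortex was compared with that of the astrocyte line to set levels across tables in 1 fit. Of 21126 genes 58.9% passed for the knockout line (31.9% higher, 27% lower) and 59.9% for the heterozygous line (32.1% higher, 27.9% lower); 8 of 24 members passed in each, 5 higher and 3 lower than in the astrocyte line. These 2 comparisons share the astrocyte libraries, and each coincides with a different count table and mitochondrial share. Genotype, tamoxifen (given to the microglial lines only) and counts per library differ as well, so these cannot be told apart. H4c4 was higher by 1.21 ± 0.15 in the knockout (adjusted p = 3e-08) and 0.93 ± 0.16 in the heterozygous line (adjusted p = 6.8e-06). H2bc4 was higher by 0.67 ± 0.08 and 0.59 ± 0.09, and H4c14 by 0.59 ± 0.14 and 0.44 ± 0.15. H2bc21 was higher by 0.18 ± 0.06 (adjusted p = 0.017) and 0.18 ± 0.07 (adjusted p = 0.0185), calls that were lost with DESeq2's size factors. H2bc8 was lower, by -0.56 ± 0.23 and -0.77 ± 0.25, and H2bc11 by -0.36 ± 0.13 and -0.36 ± 0.14. The other of the 3 lower members, Hist1h2bq, had fitted values of -4.96 ± 0.45 and -5.20 ± 0.51. It averaged 0.638 CPM in astrocyte unbound RNA, 0.0115 in knockout and 0.00922 in heterozygous unbound RNA. It passed the low-count filter through the astrocyte libraries alone and had to differ, so its call is no support. DESeq2's size factors moved the split over all genes from 6737 higher and 5698 lower to 5902 and 6530 for the knockout line, and from 6773 and 5892 to 6009 and 6612 for the heterozygous line.

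Whisker deprivation is the comparison the study was built on, and no member passed in any of its 6 tests. The members tested were 20 in bound and 16 in unbound RNA of the astrocyte line, 18 and 21 in the heterozygous line, and 18 and 22 in the knockout line. Members with an unadjusted p under 0.05 numbered 1, 1, 2, 2, 1 and 1 in that order, and DESeq2 called 0 members except 1 (H2bc4) in heterozygous bound RNA. Over all genes, 0% passed in both astrocyte fractions, 10.3% in heterozygous bound RNA, 3.75% in heterozygous unbound RNA, 0.00546% in knockout bound RNA and 0.038% in knockout unbound RNA. With the heterozygous libraries grouped by the side letter of the piece, 0% of genes passed in either fraction.

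**Figure D4:**
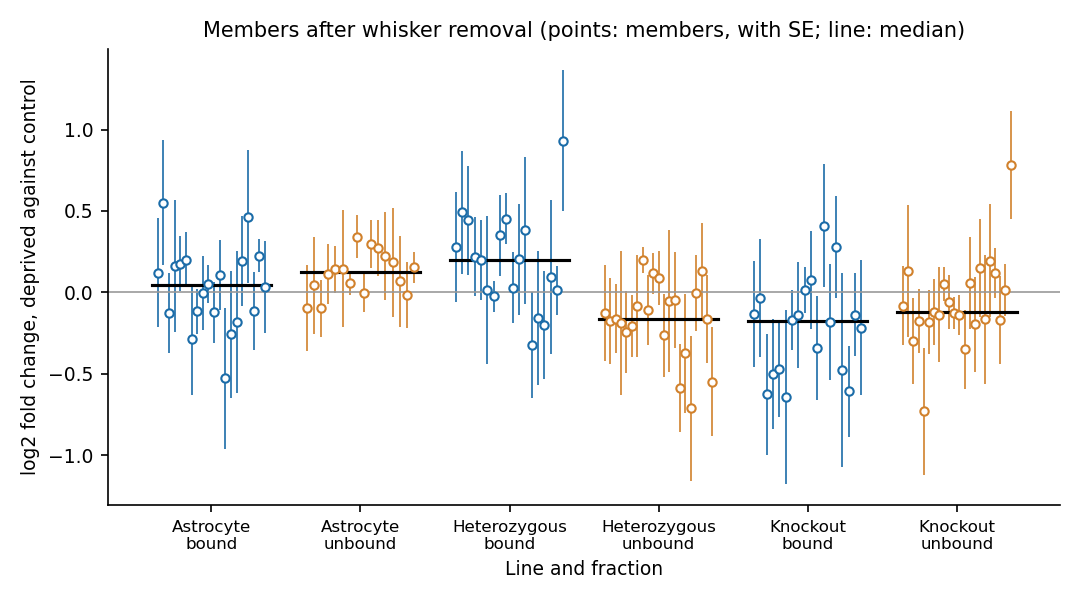
Log2 change of deprived against control libraries (vertical axis) for each tested member, by line and fraction, with bars of 1 SE and a line at the median. Changes of the members run from -0.53 to 0.55 in astrocyte bound RNA and from -0.73 to 0.78 in knockout unbound RNA, and none passed an adjusted p of 0.05.

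The summed CPM of the family overlapped between deprived and control cortex in each line and fraction. In astrocyte bound RNA it was 92.6 ± 11.2 deprived and 88.7 ± 3.69 control (SD, n = 5 each), and in unbound RNA 69.85 ± 5.22 and 65.7 ± 2.38. In the heterozygous line it was 41.1 ± 2.06 and 37.7 ± 4.25 in bound RNA and 59.3 ± 1.04 and 61.7 ± 12.5 in unbound RNA (n = 4 each). In the knockout line it was 34.6 ± 4.16 and 38.2 ± 8.18 in bound RNA and 64.9 ± 6.71 and 65.5 ± 8.87 in unbound RNA (n = 5 each). Each difference of means was smaller than the larger SD of its pair on this scale. With total counts as library size, heterozygous bound RNA had 44.86 ± 1.35 deprived and 38.5 ± 5.10 control, a difference above either SD, though the libraries still overlapped (43.3 to 46.6 and 33.1 to 44.3). Median log2 changes of the members tested, deprived against control, were 0.04 and 0.13 in astrocyte, 0.20 and -0.16 in heterozygous and -0.18 and -0.12 in knockout bound and unbound RNA.

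The members with the smallest p per test show the spread. In astrocyte bound RNA H4c4 had 14.5, 13.9, 17.6, 16.3 and 17.5 CPM in control libraries and 16.9, 21.4, 17.4, 19.25 and 18.8 in deprived ones, a change of 0.225 ± 0.10 (adjusted p = 0.82). The ranges overlap from 16.9 to 17.6 CPM. In astrocyte unbound RNA H2bc3 had 3.715, 3.22, 2.847, 3.98 and 4.06 CPM in control and 4.42, 4.94, 3.91, 4.645 and 5.19 in deprived libraries (0.34 ± 0.13, adjusted p = 0.76). All but 1 deprived library lay above every control library.

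In heterozygous bound RNA H2bc4 had 7.503, 5.95, 4.36 and 5.04 CPM in control pieces 14R, 15R, 21L and 21R, and 8.47, 6.79, 8.41 and 7.69 in deprived pieces 14L, 15L, 17L and 17R. In both mice that gave a piece to each group the deprived piece was the higher. In the same comparison 10.3% of all genes passed. There 5 of 8 microglial markers were higher and 0 lower (summed CPM 102.9 to 159.3 control, 186.9 to 221.4 deprived), as were 4 of 6 astrocyte markers (192.7 to 213.8, 266.6 to 312.0). Of 18 S phase genes 4 were higher and 1 lower (238.2 to 255.5, 278.1 to 286.9). No marker was at 0, and the part of these shifts in the H2bc4 values was not tested. The change was 0.45 ± 0.16 (adjusted p = 0.081), and H2bc4 passed under DESeq2 (adjusted p = 0.0448), without a low-count filter (0.0319) and without control library 14R (0.0162). It did not pass with the mouse as a replicate block (0.18 ± 0.16, adjusted p = 0.57), nor with groups by side letter (0.10 ± 0.21, adjusted p = 0.96). H4c9 in the same comparison had 0.2375, 0.312, 0.183 and 0.2705 CPM in control and 0.556, 0.641, 0.187 and 0.540 in deprived pieces (0.93 ± 0.43, adjusted p = 0.19), with 1 deprived library among the control values. In heterozygous unbound RNA H2bc21 had 17.3, 14.7, 14.3 and 15.0 CPM in control and 16.6, 17.8, 16.4 and 17.5 in deprived pieces (0.20 ± 0.08, adjusted p = 0.20), which overlap.

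In knockout bound RNA H4c14 had 0.720, 1.15, 1.70, 1.26 and 1.62 CPM in control cortex of mice 7, 12, 18, 19 and 22 and 0.796, 0.579, 0.803, 0.805 and 1.27 in their deprived cortex (-0.61 ± 0.28, adjusted p = 1). The deprived side was the lower in 4 of 5 mice. In knockout unbound RNA H4c9 had 0.304, 0.3195, 0.241, 0.136 and 0.240 CPM in control and 0.248, 0.464, 0.3125, 0.5263 and 0.662 in deprived cortex of the same mice (0.78 ± 0.33, adjusted p = 1), higher on the deprived side in 4 of 5. Other members among the 3 smallest p of a test were H2bc8 (-0.53 ± 0.43) and H2ac6 (0.55 ± 0.38) in astrocyte bound RNA, H2bc6 (0.295 ± 0.15) and H4c4 (0.15 ± 0.10) in astrocyte unbound RNA, and H2bc3 (0.35 ± 0.25) in heterozygous bound RNA. In heterozygous unbound RNA they were H3c15 (-0.59 ± 0.27) and H4c9 (-0.55 ± 0.33). In the knockout line they were H2bc14 (-0.47 ± 0.30) and H2bc11 (-0.63 ± 0.37) in bound RNA, and H2bc12 (-0.73 ± 0.39) and H2bc7 (-0.35 ± 0.24) in unbound RNA. None of these passed.

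**Figure D5:**
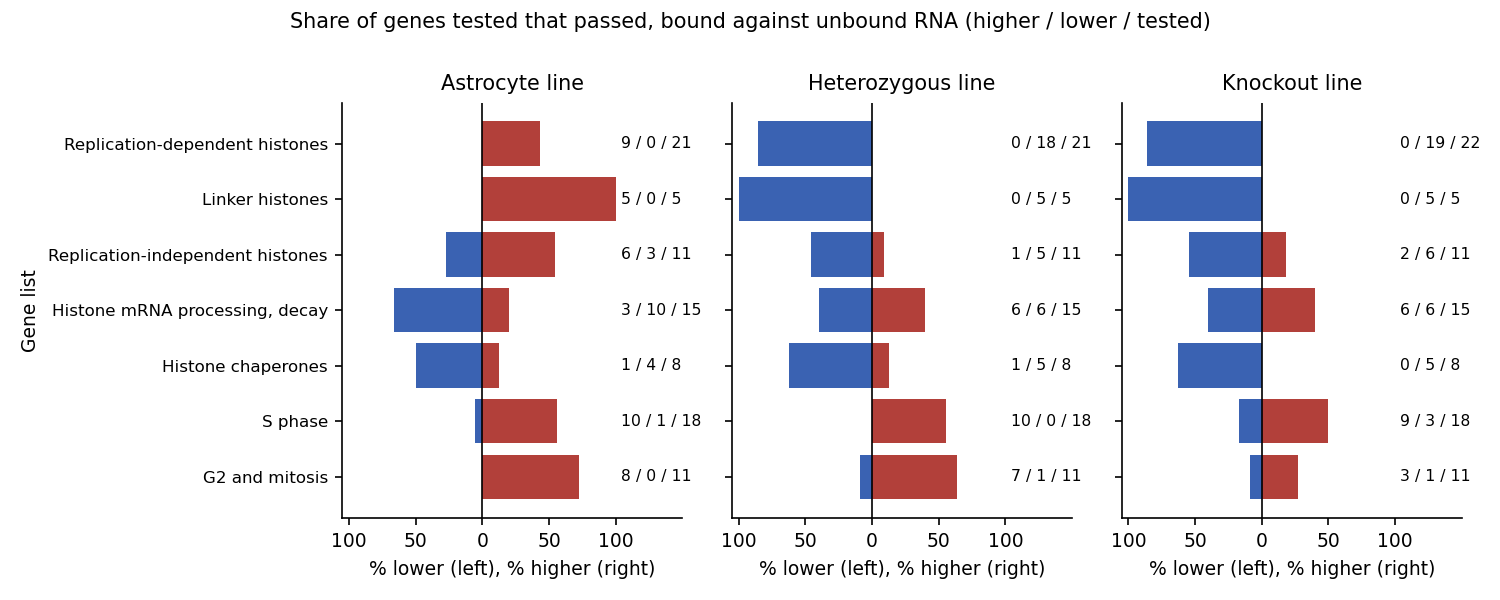
Percent of tested genes that passed as higher (right) or lower (left) in bound against unbound RNA (horizontal axis) for the histone members and for gene lists of related function, in each line. Linker histones pass as higher in 5 of 5 in the astrocyte line and as lower in 5 of 5 in each microglial line, while S phase genes pass mostly as higher in all 3.

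Genes around the histone pathway were read from lists. For scale, 31.5% of all genes tested were higher and 27.6% lower in astrocyte bound RNA. These shares were 31.8% and 30.8% in the heterozygous and 31.6% and 30.4% in the knockout line. Differences from the astrocyte line passed as higher for 17.7% and lower for 18.8% of genes in the heterozygous line. In the knockout line both shares were 18.5%. Linker histones, which bind DNA between nucleosomes and are made with the core histones, moved with the members. All 5 were higher in bound RNA of the astrocyte line (median 0.48) and all 5 lower in the heterozygous (median -0.99) and knockout lines (median -1.53). Their summed CPM was 49.1 bound and 34.1 unbound in the astrocyte line, 18.5 and 33.6 in the heterozygous, and 15.6 and 36.9 in the knockout line. The difference from the astrocyte line passed as lower for 5 of 5 in both microglial lines. Replication-independent histones are mostly made from polyadenylated mRNAs and less tied to S phase, although H2ax also gives a stem-loop transcript and Cenpa is made mainly in G2. They had 6 higher and 3 lower of 11 in the astrocyte line, 1 higher and 5 lower in the heterozygous, and 2 higher and 6 lower in the knockout line. Their difference from the astrocyte line passed as higher for 0 and lower for 7 of 11 in each microglial line (medians -0.46 and -0.55), among them H3f3a and H2az1.

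S phase genes that passed were more often higher than lower in bound RNA of each line, also in the microglial lines. Of 18 S phase genes 10 were higher and 1 lower in astrocyte bound RNA, 10 higher and 0 lower in the heterozygous line, and 9 higher and 3 lower in the knockout line. The difference from the astrocyte line passed as higher for 4 and lower for 3 of 18 in the heterozygous line, near the shares over all genes. In the knockout line it passed as higher for 3 and lower for 5. Of 11 genes of G2 and mitosis 8 were higher and 0 lower, 7 higher and 1 lower, and 3 higher and 1 lower in the same order of lines. The 3 higher in the knockout line were not above the share of all genes called higher. For these 11 genes the difference from the astrocyte line passed as higher for 0 and lower for 1 in the heterozygous line (median -0.15). In the knockout line it passed as higher for 0 and lower for 7 of 11 (median -0.47). Mki67, which encodes a protein of dividing cells, was higher in bound RNA by 1.05 ± 0.05, 0.96 ± 0.07 and 0.685 ± 0.13.

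Among 15 genes of histone mRNA processing and decay, 3 were higher and 10 lower in the astrocyte line, and 6 higher and 6 lower in each microglial line. The microglial counts were not far above the shares over all genes. Slbp, which encodes the stem-loop binding protein, averaged 13.5 CPM bound and 19.9 unbound in the astrocyte line, 10.2 and 16.2 in the heterozygous and 10.3 and 15.6 in the knockout line. It fell by 0.51 (SE 0.08), by 0.72 (SE 0.07) and by 0.615 (SE 0.05). Of 8 histone chaperones 1 was higher and 4 lower, 1 higher and 5 lower, and 0 higher and 5 lower; Nasp, a carrier of H3 and linker histones, was among the lower in each.

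Cell type markers also differed between fractions, some in the members' direction and others against it. Of astrocyte markers in bound RNA 6 of 6 were higher in the astrocyte line (median 1.39), and 1 was higher and 4 lower in the heterozygous (median -0.77) and in the knockout line (median -0.70). Their sums ranged from 192.7 to 312.0 CPM bound and 283.5 to 364.9 unbound in the heterozygous line, and from 175.0 to 304.6 and 252.0 to 391.3 in the knockout line. Their difference from the astrocyte line passed as lower for 6 of 6 in both (medians -1.95 and -1.83). Of 5 markers of the oligodendrocyte lineage 3 were higher and 2 lower in astrocyte bound RNA, and 1 higher and 3 lower in each microglial line. The part of these markers' cells in the histone result was not tested. Of 5 neural progenitor markers 4 were higher and 0 lower in astrocyte bound RNA and 2 higher and 1 lower in each microglial line, with ranges of summed CPM of 178.3 to 267.7 bound and 114.3 to 135.7 unbound, 127.9 to 164.0 and 83.55 to 100.9, and 105.4 to 170.6 and 72.5 to 113.5. Of 6 neuronal markers 5, 4 and 4 were lower. Of 5 erythroid markers 4, 5 and 4 were lower in bound RNA; their sums ranged from 16.05 to 35.8 CPM bound and 37.3 to 58.75 unbound in the astrocyte line, 8.10 to 18.8 and 23.1 to 47.4 in the heterozygous, and 3.81 to 18.3 and 9.97 to 57.2 in the knockout line. No marker of these lists was at 0. The mitochondrial share was far higher in microglial unbound RNA, and with mitochondrially encoded genes removed 9, 19 and 19 members passed in the astrocyte, heterozygous and knockout libraries, in the same directions.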

How the data were processed

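Per the labels, RNA bound to EGFP-tagged ribosomes and unbound RNA were sequenced in 56 libraries. Each line has a deposited table of raw counts of reads per gene, with a column per library. The submitters' processing notes name HISAT2 2.2.0, featureCounts 2.0.0, FastQC 0.11.9, Trim Galore 0.6.4 and cutadapt 2.9, and the builds mm10 and GRCm38. Strand settings are not given in the sources used here. Every value column was assigned to a sample (0 left over). Genes were tested in R 4.3.3 with edgeR 4.0.16 (TMM, filterByExpr, quasi-likelihood F test, two-sided, Benjamini-Hochberg adjustment over all genes tested, threshold 0.05); DESeq2 1.42.0 was an alternative. Deprivation was fitted within line and fraction, bound against unbound over the 4 groups of a line, and line comparisons over all groups concerned. Mitochondrially encoded genes stayed in the library sizes. CPM used TMM library sizes within each table. Counts were also simulated with bound and unbound as the only groups, and likewise for deprivation in bound RNA. Of genes changed by 1 on the log2 scale, 86.7% to 94.0% and 69.7% to 78.8% were recovered. False calls made up 1.6% to 5.6% and 6.1% to 7.0% of calls. The changed genes were drawn at random from all genes past the low-count filter, so these shares do not describe the members.

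Members, lists, tests and alternatives were chosen with earlier results of these data known. The between-line difference, the linker histone list, and fits without mitochondrially encoded genes or on control or deprived libraries alone were added after the data were seen. Members named are the 12 highest per kilobase, the highest of each class, those that passed for deprivation or otherwise the 3 with the smallest p, and up to 5 passing per direction in other comparisons; a member named for one comparison may be described in others. Knockout pieces, and mice 14 and 15 of the heterozygous line, pair by animal; deviations of paired libraries correlated above 0.1 in 4 of 5 and 2 of 2 pairs in each fraction. Bound and unbound libraries of a piece did so in 10 of 10 knockout and 8 of 8 heterozygous pairs. Astrocyte libraries, assumed to pair by condition and replicate number, did so in 7 of 10 pairs.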

Additional observations from a re-analysis of the deposited data

Results flagged for a closer look

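For the summed CPM and the 12 members highest per kilobase, each group of 4 or 5 libraries was searched for a library far from the rest; 10 of 156 groups held one, and chance flags about 1 in 20 groups. In knockout unbound control RNA, mouse 12 was highest for both H2bc4, at 12.36 CPM, and H2bc21, at 19.61 CPM. In the same group mouse 7 was lowest for H2ac15, at 0.5652 CPM. In knockout bound RNA, mouse 7 was lowest of the controls for H2bc3, at 0.4501 CPM, and mouse 18 lowest of the deprived libraries for H2bc7, at 0.2545 CPM. In heterozygous unbound deprived RNA, library 7 (piece 14L) was lowest for H2bc13, at 1.389 CPM, and highest for H2bc11, at 1.365 CPM. In heterozygous bound deprived RNA, 1 library was lowest for H2bc7, at 0.3603 CPM, and another lowest for H3c3, at 0.2285 CPM. In astrocyte bound deprived RNA, library 1 was highest for H4c14, at 2.929 CPM.

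The bound against unbound change differed between lines by the test of that difference: 24 of 33 members were lower in the heterozygous than in the astrocyte line, and 23 of 33 lower in the knockout than in the astrocyte line. Of these 33 members, 13 passed only the low-count filter of the joint fit; among the other 20, 17 were lower in each difference.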

How the results depend on the processing

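Of 105 counts of members and summed CPM under settings other than leaving out 1 library, 93 stayed within the spread or 1.5 times, and of 586 log2 changes of named members 556 kept their direction and side of the threshold. In heterozygous bound RNA the deprivation count of 0 became 1 without a low-count filter and 1 under DESeq2, and ran from 0 to 1 with 1 library left out; the library is control 14R. Bound against unbound, 10 heterozygous members passed from deprived libraries alone and 17 from the equally many control libraries; the cause was not tested. Without mitochondrially encoded genes the sums became 94.8 (bound) and 70.5 (unbound) CPM in astrocyte controls, 45.9 in heterozygous bound deprived, 78.8 and 76.8 in heterozygous unbound deprived and control, and 82.8 and 86.6 in knockout unbound deprived and control libraries. Scaled to total counts, heterozygous deprived sums were 44.9 bound and 56.9 unbound, against 38.5 and 57.8 in controls; without mitochondrially encoded genes heterozygous bound controls had 39.4.

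With the replicate block 9, 19 and 19 members passed bound against unbound in the astrocyte, the heterozygous and the knockout line. The line differences gave 24, 24 and 0, and every deprivation test gave 0. In the astrocyte line the block assumes pairing by replicate number, as its labels name no animals. Under the block the deprivation change of H2bc3 in heterozygous bound RNA turned to -0.03 and that of H4c9 in heterozygous unbound RNA to 0.04. H2ac15, astrocyte bound against unbound, was -0.05 from control libraries alone and ran from -0.02 to 0.13 with 1 library left out; H2bc21, knockout against heterozygous, ran from -0.05 to 0.08 in bound and from -0.05 to 0.03 in unbound RNA. The cause of these turns was not tested. With 1 library left out, bound against unbound counts ran from 9 to 12, 17 to 19 and 18 to 19. Members under about 10 counts a library are limited by depth.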
